A study of Homo sapiens with 12 samples.

Results

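The 10 circadian clock genes PER1, PER2, PER3, CRY1, CRY2, ARNTL, CLOCK, NR1D1, NR1D2 and DBP were taken by exact name from tables of 23621 genes, and all 10 had a row in both tables. RNA-seq had been carried out on 12 libraries of untransduced KURAMOCHI (Ku) and COV362 (Cov) cells, which are human ovarian cancer cell lines, so each line stands for the cells of a single tumor. In each line 2 libraries, described as biological duplicates, came from cells given DMSO, the vehicle, 2 from cells given THZ1 at 50 nM and 2 from cells given THZ1 at 250 nM, all for 6 hr. THZ1 is a covalent inhibitor of CDK7, a kinase of the general transcription machinery, and it also acts on the transcriptional kinases CDK12 and CDK13. The question addressed here is how far the RNA of each clock gene fell at each dose, beside the fall of all active genes. One time point was collected and the labels name no synchronization of the cells, so the phase of the clock was not measured.

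The circadian clock is a feedback loop of transcription. CLOCK and ARNTL (also called BMAL1) bind as a pair to E-box sequences and activate the PER and CRY genes, whose proteins enter the nucleus and repress that same pair. In a further loop the nuclear receptors NR1D1 and NR1D2 (REV-ERB alpha and beta) repress ARNTL from RORE sequences, and DBP activates genes with a D-box. Several of these RNAs are made and degraded anew in each cycle.

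The values were FPKM (fragments per kilobase of transcript, scaled to the size of the library), which the authors had scaled to spike-in RNAs added to RNA from equal numbers of cells, so that a fall of all RNA per cell is kept. RNA was measured in bulk, where fewer cells of a type and less RNA per cell cannot be told apart. FPKM summed to between 607016 and 1686567 per library, and the libraries of the same group correlated at r of 0.968 to 0.983 across active genes. Read counts were not used here and the depth is unknown, but the lowest member value, 0.277 FPKM, lay above the low value shared by many rows of a table, 0.0783 to 0.119 FPKM. In DMSO the Müllerian marker PAX8 (124 to 136 FPKM, means of 2 libraries) and the keratins KRT8 (1133 to 2432) and KRT18 (792 to 2135) were high in both lines. EPCAM and KRT7, epithelial markers, had means of 4.13 and 4.61 FPKM in Ku and 162 and 1355 FPKM in Cov. WT1 was at 0.653 FPKM in Cov and MUC16 at 0.166 FPKM in Ku, while the leukocyte, endothelial and hepatocyte markers PTPRC, CD3E, PECAM1 and ALB had means of at most 0.338 FPKM and the fibroblast marker COL1A1 2.53 and 3.17 FPKM.

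At 250 nM all 10 clock genes fell in both lines, and none was called higher at either dose. The RNA left at 250 nM was 11.8% (NR1D1) to 48.4% (CRY1) of the DMSO mean in Ku and 16.5% (NR1D1) to 43.7% (DBP) in Cov. The genes differed in the dose at which they went down. PER3 and CLOCK, a repressor and an activator, had 29.6% and 41.0% of their RNA left in Ku and 23.5% and 27.3% in Cov by 50 nM. DBP had 33.8% left in Ku, less than CLOCK, and 54.5% in Cov, and NR1D1 had 50.0% and 38.9%. CRY1 was at 122% of DMSO in Ku and 79.5% in Cov at that dose and lost most of its RNA between 50 and 250 nM.

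Each dose was compared with DMSO by limma on log2(FPKM + 1) over 14251 active genes. To be called, a gene needed a Benjamini-Hochberg adjusted p under 0.001 together with a log2 fold change of more than 0.5 in size. All 10 members passed the filter on low values. At 50 nM 1 member was called lower in Ku, PER3, where 11.3% of all active genes were called lower. In Cov 7 of 10 were called lower at 50 nM, all but PER2, CRY1 and NR1D2, against 70.5% of all genes. At 250 nM 10 of 10 were called lower in each line, against 68.6% of all genes in Ku and 84% in Cov. Between 50 and 250 nM 4 members were called lower in Ku, CRY1, CRY2, NR1D1 and NR1D2, against 36% of all genes, and 3 in Cov, CRY1, ARNTL and NR1D2, against 24.4%. By limma 0 members were called higher in any of these comparisons, and 0 were higher at an unadjusted p under 0.05. The shares of all genes called higher at 50 nM, at 250 nM and between the doses were 0.0842%, 0.0491% and 0.0421% in Ku and 0.0772%, 0.105% and 0.0842% in Cov, and at an unadjusted p under 0.05 they were 1.46%, 0.182% and 0.309% in Ku and 0.4%, 0.309% and 1.6% in Cov. Members lower at an unadjusted p under 0.05 were 5 at 50 nM, 10 at 250 nM and 9 between the doses in Ku, against 61%, 89.6% and 73.9% of all genes, and 10, 10 and 7 in Cov, against 91.5%, 92.8% and 63.9%.

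RNA of the active genes fell as a whole, and the members are described beside that fall. Their median log2 fold change was -0.44 at 50 nM in Ku, beside -0.40 for all active genes, and -1.49 at 250 nM, beside -1.11. In Cov it was -0.73 at 50 nM, beside -0.85, and -1.40 at 250 nM, beside -1.31. Between the doses it was -0.93 in Ku, beside -0.62, and -0.55 in Cov, beside -0.41. Below the median of all active genes lay 5 of 10 members at 50 nM, 8 at 250 nM and 8 between the doses in Ku, and 3, 7 and 6 in Cov. The median share of RNA left at 250 nM was 24.7% for the members and 36.3% for all active genes in Ku, and 25.5% and 33.0% in Cov. The 2 libraries of a treated group both lay below both DMSO libraries for 7 of 10 members at 50 nM in Ku (75.8% of all genes) and for 10 of 10 at 250 nM in Ku (95.9% of all genes), at 50 nM in Cov (95.7%) and at 250 nM in Cov (95.6%). Both 250 nM libraries lay below both 50 nM libraries for 10 of 10 members in Ku (87.7% of all genes) and 9 of 10 in Cov (75.6%), where PER1 overlapped. CRY1 was the 1 member with both treated libraries above DMSO, at 50 nM in Ku (3.45% of all genes), and CRY2 and ARNTL overlapped there. In the other 5 comparisons 0 members had their higher-dose libraries above, where 0.414% of all genes did at 250 nM and 1.26% between the doses in Ku, and 0.674% at 50 nM, 0.54% at 250 nM and 4.76% between the doses in Cov.

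**Figure D1:**
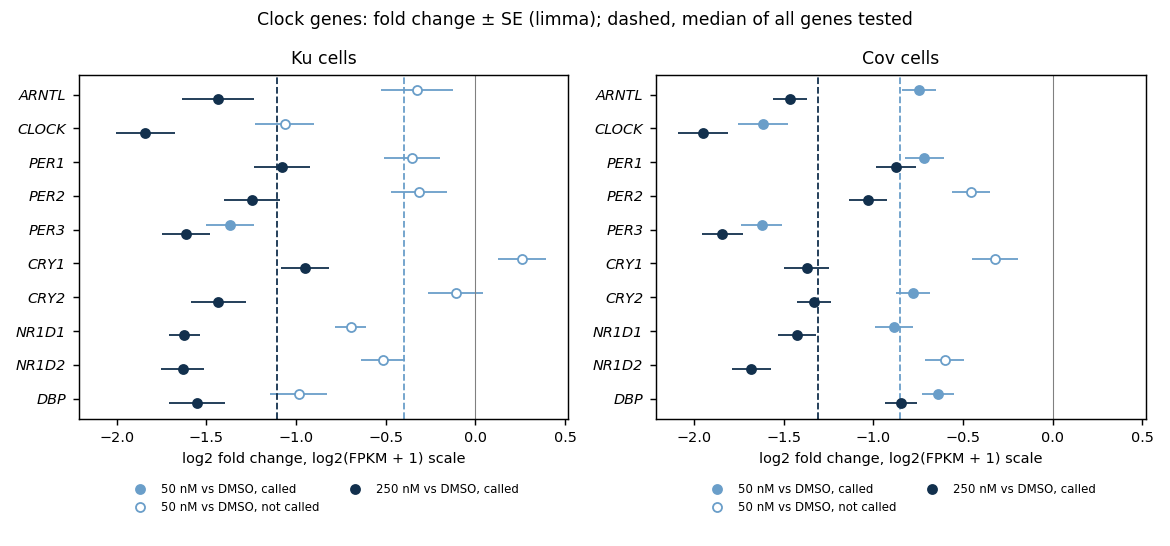
Log2 fold change of each clock gene at 50 nM and at 250 nM against DMSO in Ku (left) and Cov cells (right), on the log2(FPKM + 1) scale, with the standard error from limma and 2 libraries per group. Filled points passed the threshold and open points did not, and dashed lines of the same color mark the median of all 14251 active genes. PER3 and CLOCK lie left of the dashed line at both doses, and CRY1 lies furthest right at 50 nM in both lines, at 0.26 in Ku and -0.32 in Cov.

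These calls rest on the spike-in scale and on few libraries. When each library was instead scaled to the same median FPKM, which takes the common fall out by construction, 1 member was called lower at 250 nM in Ku (NR1D1) and 0 in Cov by limma, and CRY1 was called higher in both lines, with 11.6% of all genes lower and 26.9% higher in Ku and 11.3% and 26.4% in Cov. Without 1 of the 6 libraries of a line all members stayed lower than DMSO at 250 nM. Their median log2 fold change there lay between -1.64 and -1.32 in Ku and between -1.46 and -1.35 in Cov. In Ku PER1, PER2, CRY1, CRY2, ARNTL, CLOCK and DBP lost their call at 250 nM in at least 1 such fit, and in Cov PER1 did. At 50 nM in Cov PER1, CRY2, ARNTL, NR1D1 and DBP lost theirs. The share of all genes that lost a call in the same fits is not given here. The call of PER3 at 50 nM in Ku was lost without any 1 of the 6 libraries, with adjusted p between 0.00263 and 0.00589 by limma. Between the doses the median of the members lay between -0.99 and -0.87 in Ku and between -0.60 and -0.48 in Cov. Every member called there lost its call in at least 1 of these fits.

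The sequences around the starts of the genes were searched for motifs that clock factors are known to bind. RefSeq windows on GRCh38.p14, from 250 bases before to 50 bases after a transcription start, were given for all 10 members, 15 windows in all. They were searched on both strands for the E-box CACGTG, the D-box TTATGTAA or TTACGTAA, the RORE core TAGGTCA and the cyclic AMP response element TGACGTCA. The 250 bases before the start are shown for PER3 and CLOCK, which were low by 50 nM, for CRY1 and NR1D2, which were called lower between 50 and 250 nM in both lines, and for PER1, with the motifs found in capitals.
PER3 promoter, chr1:7784041-7784290, plus strand: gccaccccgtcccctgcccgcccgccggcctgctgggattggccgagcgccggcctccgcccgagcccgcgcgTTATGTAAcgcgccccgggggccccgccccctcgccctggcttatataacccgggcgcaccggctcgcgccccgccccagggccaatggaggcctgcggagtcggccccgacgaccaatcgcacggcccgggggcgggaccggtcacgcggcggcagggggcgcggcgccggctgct
CLOCK promoter, chr4:55546910-55547159, minus strand: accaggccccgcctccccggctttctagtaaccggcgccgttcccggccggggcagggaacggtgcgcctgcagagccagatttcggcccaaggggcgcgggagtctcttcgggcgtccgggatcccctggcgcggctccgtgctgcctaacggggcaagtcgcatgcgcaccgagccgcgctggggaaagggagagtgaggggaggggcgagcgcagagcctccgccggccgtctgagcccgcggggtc
CRY1 promoter, chr12:107093550-107093799, minus strand: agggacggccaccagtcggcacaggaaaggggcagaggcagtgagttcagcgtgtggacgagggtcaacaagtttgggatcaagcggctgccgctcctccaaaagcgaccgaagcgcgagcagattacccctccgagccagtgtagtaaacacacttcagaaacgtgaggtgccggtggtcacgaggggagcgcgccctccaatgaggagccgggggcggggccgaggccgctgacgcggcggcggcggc
NR1D2 promoter, chr3:23945871-23946120, plus strand: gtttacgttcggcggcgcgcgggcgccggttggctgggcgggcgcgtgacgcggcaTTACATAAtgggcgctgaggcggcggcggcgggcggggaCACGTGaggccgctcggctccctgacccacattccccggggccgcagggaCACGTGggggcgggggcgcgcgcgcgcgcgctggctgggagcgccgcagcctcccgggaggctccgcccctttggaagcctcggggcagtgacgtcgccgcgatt
PER1 promoter, chr17:8152405-8152654, minus strand: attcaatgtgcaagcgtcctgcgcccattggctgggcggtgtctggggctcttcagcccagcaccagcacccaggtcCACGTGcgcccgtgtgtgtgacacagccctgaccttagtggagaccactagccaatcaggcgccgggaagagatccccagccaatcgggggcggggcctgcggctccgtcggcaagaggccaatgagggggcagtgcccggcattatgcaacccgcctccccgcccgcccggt

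PER3 carried a D-box at positions -177 to -170, counted from the start with no position zero. PER1 carried an E-box at -173 to -168, and NR1D2 carried 2 E-boxes, at -155 to -150 and -105 to -100, and a D-box read on the other strand at -194 to -187. None of these letters was found in the windows of CLOCK, CRY1, NR1D1 or DBP. Only the exact letters in these short windows were searched, so sites spelled otherwise or lying elsewhere could not be found. Sites in 3 further members are shown with up to 11 bases on each side, a D-box in PER2 at -3 to 5 and RORE cores in CRY2 at -65 to -59 and in ARNTL at 31 to 37.
PER2 site, chr2:238288595-238288624, minus strand: cccgctgcggcTTACGTAAccgccgccggc
CRY2 site, chr11:45847399-45847427, plus strand: ttgcggcgtcaTAGGTCActgggcgggct
ARNTL site, chr11:13277809-13277837, plus strand: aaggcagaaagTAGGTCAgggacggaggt

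Over 35116 RefSeq windows of the same length the E-box was found in 7.26%, the D-box in 1.01%, the RORE core in 1.85% and the cyclic AMP response element in 1.85%. Counted by gene, as for the members, 8.77%, 1.27%, 2.29% and 2.25% of 27305 genes had the motif in at least 1 window. Of the 10 members 2 had an E-box, 3 a D-box, 2 a RORE core and 0 the cyclic AMP response element. The members with a D-box, PER3, NR1D2 and PER2, had 29.6%, 67.4% and 76.9% of the DMSO level left at 50 nM in Ku and 23.5%, 64.6% and 61.4% in Cov. Those with a RORE core, CRY2 and ARNTL, had 91.4% and 75.1% left in Ku and 46.8% and 50.8% in Cov. A match is a description of the letters, and binding of any factor was not measured.

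In DMSO the repressor gene CRY1 and the receptor gene NR1D2 had the highest levels of the 10 in both lines, at mean FPKM, which is per length, of 13.8 and 12.7 in Ku and 27.6 and 27.7 in Cov. Their ranges over 2 libraries overlapped in each line. In Ku PER1 (9.11), CRY2 (8.15), CLOCK (7.64), PER3 (6.66) and PER2 (5.98) followed, each overlapping the next, then ARNTL (4.18), and NR1D1 (3.27) and DBP (3.08), which overlapped. In Cov CLOCK (12.1), PER3 (7.39) and ARNTL (4.57) each stood apart from their neighbours, DBP (3.71), CRY2 (3.70) and PER1 (3.64) overlapped, and NR1D1 (3.03) and PER2 (2.39) came last. The tables of the lines were normalized separately, so levels in Ku and Cov are given side by side and were not tested against each other.

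**Figure D2:**
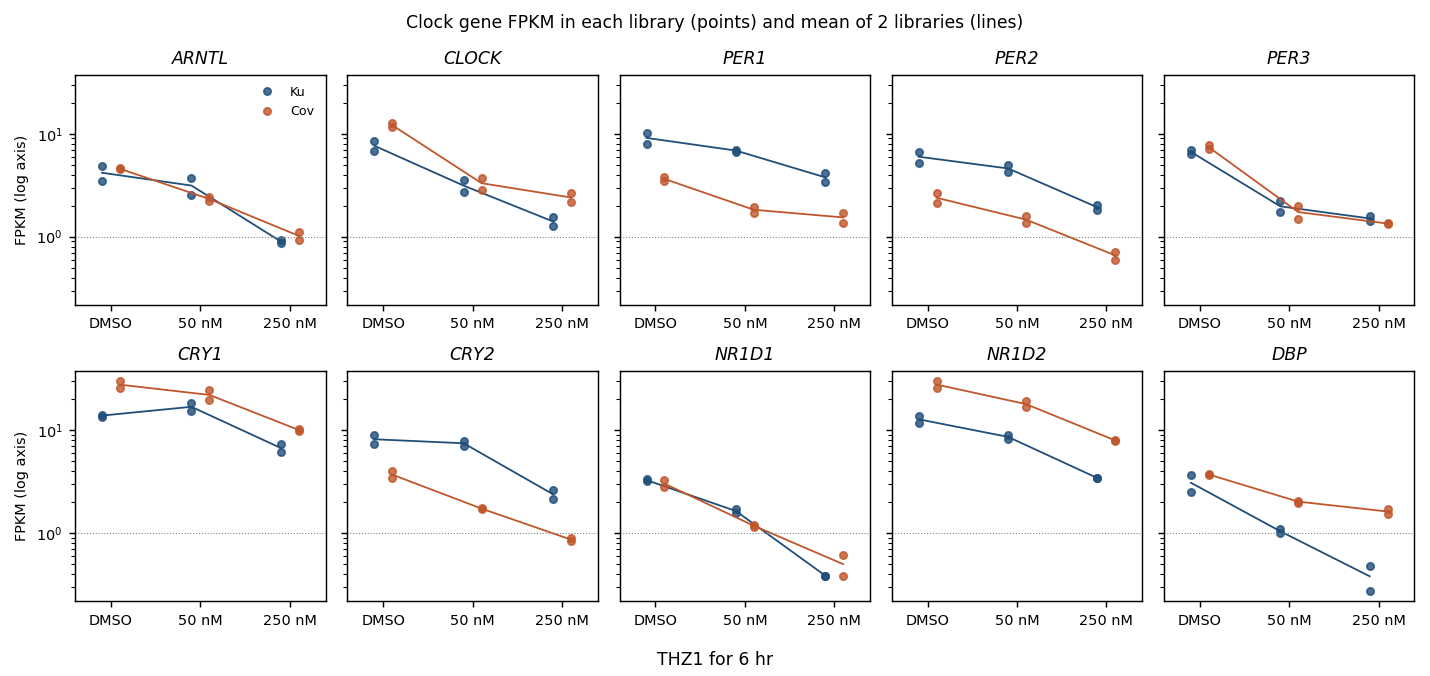
FPKM of the 10 clock genes in each of 12 libraries on a log axis, by dose of THZ1 for 6 hr, with lines through the means of 2 libraries in Ku and Cov cells and a dotted line at 1 FPKM. PER3 and CLOCK show their steepest step from DMSO to 50 nM in Cov, where CLOCK went from 12.1 to 3.30 FPKM, and CRY1 shows its steepest step from 50 to 250 nM in both lines.

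CLOCK and ARNTL encode the partners of the activating pair, and CLOCK kept a smaller share of its RNA at 50 nM than ARNTL in both lines. CLOCK (chromosome 4, 56294070 to 56413076, minus strand, GRCh37) measured 8.42 and 6.85 FPKM in DMSO, 3.53 and 2.74 at 50 nM and 1.27 and 1.54 at 250 nM in Ku. CLOCK in Cov measured 11.6 and 12.7 FPKM in DMSO, 2.87 and 3.74 at 50 nM and 2.65 and 2.16 at 250 nM. All treated libraries lay below all DMSO libraries of their line, and the step between the doses was wide in Ku and narrow in Cov. On the log2(FPKM + 1) scale the fold change of CLOCK at 50 nM was -1.06 ± 0.17 (SE) in Ku, with an adjusted p of 0.00314 by limma that missed the threshold, and -1.61 ± 0.14 (adjusted p = 4.61e-05) in Cov. At 250 nM it was -1.84 ± 0.17 (adjusted p = 8.95e-05) in Ku and -1.95 ± 0.14 (adjusted p = 6.67e-06) in Cov. At 50 nM 11.9% of active genes in Ku and 6.88% in Cov had a more negative fold change than CLOCK.

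ARNTL (chromosome 11, 13298199 to 13408813, plus strand) measured 4.87 and 3.48 FPKM in DMSO, 3.76 and 2.52 at 50 nM and 0.932 and 0.863 at 250 nM in Ku. The 50 nM libraries overlapped DMSO there, with a fold change of -0.33 ± 0.20 (adjusted p = 0.208 by limma), while both 250 nM libraries lay well below (-1.43 ± 0.20, adjusted p = 0.000623). In Cov ARNTL measured 4.63 and 4.51 FPKM in DMSO, 2.21 and 2.44 at 50 nM and 1.11 and 0.932 at 250 nM. It fell at each step there, by 0.75 ± 0.10 on the log2 scale at 50 nM (adjusted p = 0.000234) and by a further 0.72 ± 0.10 from 50 to 250 nM (adjusted p = 0.000698).

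The PER genes encode repressors that bind CRY proteins, and PER3 kept a smaller share of its RNA at 50 nM than PER1 and PER2 in both lines. PER3 (chromosome 1, 7844351 to 7905237, plus strand) measured 6.91 and 6.42 FPKM in DMSO, 2.21 and 1.73 at 50 nM and 1.42 and 1.58 at 250 nM in Ku. PER3 in Cov measured 7.07 and 7.71 FPKM in DMSO, 1.5 and 1.97 at 50 nM and 1.35 and 1.33 at 250 nM. The groups did not overlap, but the 50 nM libraries already lay close to the 250 nM libraries. At 50 nM the fold change of PER3 was -1.37 ± 0.13 (adjusted p = 0.000689 by limma) in Ku and -1.62 ± 0.11 (adjusted p = 2.66e-05) in Cov, and 6.21% and 6.66% of active genes had a more negative one. From 50 to 250 nM 76.3% of the RNA was left in Ku (adjusted p = 0.15) and 77.3% in Cov (adjusted p = 0.136), a step that did not pass the test, while the median active gene was left with 55.8% and 69.1% over the same step.

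PER1 (chromosome 17, 8043790 to 8059824, minus strand) measured 10.2 and 8.03 FPKM in DMSO, 6.72 and 7.0 at 50 nM and 3.41 and 4.12 at 250 nM in Ku. In Cov it measured 3.49 and 3.79 FPKM in DMSO, 1.69 and 1.96 at 50 nM and 1.36 and 1.71 at 250 nM, so that the treated groups overlapped each other there. PER1 fell at 250 nM in Ku (-1.08 ± 0.16, adjusted p = 0.000734 by limma) and at both doses in Cov (-0.72 ± 0.11, adjusted p = 0.000544, and -0.87 ± 0.11, adjusted p = 0.000138).

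PER2 (chromosome 2, 239152685 to 239198743, minus strand) measured 6.70 and 5.25 FPKM in DMSO, 4.92 and 4.27 at 50 nM and 1.82 and 2.04 at 250 nM in Ku. In Cov it measured 2.13 and 2.64 FPKM in DMSO, 1.35 and 1.58 at 50 nM and 0.598 and 0.717 at 250 nM. Libraries of each dose lay below those of the dose before it in both lines. At 50 nM its fold change did not pass in either line (-0.31 ± 0.16, adjusted p = 0.135 by limma, in Ku and -0.46 ± 0.11, adjusted p = 0.00451, in Cov), and at 250 nM it fell in both (-1.25 ± 0.16, adjusted p = 0.000376, and -1.03 ± 0.11, adjusted p = 4.68e-05).

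CRY1 encodes a strong repressor of the activating pair, and it kept its level at 50 nM best of the 10 members in both lines. CRY1 (chromosome 12, 107385142 to 107487327, minus strand) measured 14.1 and 13.6 FPKM in DMSO, 18.4 and 15.2 at 50 nM and 6.09 and 7.31 at 250 nM in Ku. CRY1 in Cov measured 25.5 and 29.7 FPKM in DMSO, 19.6 and 24.3 at 50 nM and 10.2 and 9.86 at 250 nM. Both 50 nM libraries lay above DMSO in Ku and below DMSO in Cov, and both 250 nM libraries lay far below in each line. The fold change at 50 nM did not pass in Ku (0.26 ± 0.13, adjusted p = 0.148 by limma) or in Cov (-0.32 ± 0.13, adjusted p = 0.0434), and 97.7% and 90.8% of active genes had a more negative one. From 50 to 250 nM CRY1 fell by 1.21 ± 0.13 on the log2 scale in Ku (adjusted p = 0.000451) and by 1.05 ± 0.13 in Cov (adjusted p = 0.000461), and 20.3% and 13.2% of active genes had a more negative step.

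Its paralog CRY2 (chromosome 11, 45868669 to 45904799, plus strand) measured 8.98 and 7.32 FPKM in DMSO, 7.86 and 7.04 at 50 nM and 2.15 and 2.61 at 250 nM in Ku. The 50 nM libraries overlapped DMSO in Ku (-0.11 ± 0.15, adjusted p = 0.57 by limma), and the step from 50 to 250 nM was -1.32 ± 0.15 (adjusted p = 0.000531). In Cov CRY2 measured 3.99 and 3.41 FPKM in DMSO, 1.70 and 1.75 at 50 nM and 0.838 and 0.892 at 250 nM. There it fell already at 50 nM (-0.78 ± 0.09, adjusted p = 0.000186).

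NR1D1 and NR1D2 encode the receptors of the loop that represses ARNTL, and NR1D1 kept the smallest share of its RNA at 250 nM of the 10 members in both lines. NR1D1 (chromosome 17, 38249046 to 38256842, minus strand) measured 3.33 and 3.21 FPKM in DMSO, 1.72 and 1.56 at 50 nM and 0.385 and 0.387 at 250 nM in Ku. In Cov it measured 2.79 and 3.26 FPKM in DMSO, 1.15 and 1.21 at 50 nM and 0.382 and 0.616 at 250 nM. The 3 groups were fully apart in each line. At 250 nM 11.8% of the DMSO level was left in Ku (-1.62 ± 0.09, adjusted p = 1.61e-05 by limma) and 16.5% in Cov (-1.43 ± 0.11, adjusted p = 8.99e-06), and 11.7% and 18.6% of active genes kept a smaller share. Values under 1 FPKM are compressed on the log2(FPKM + 1) scale, so these fold changes understate the loss.

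NR1D2 (chromosome 3, 23986777 to 24022108, plus strand) was more abundant than NR1D1 in DMSO, per length, with 13.6 and 11.8 FPKM in Ku and 25.7 and 29.7 in Cov. It measured 8.96 and 8.22 FPKM at 50 nM and 3.45 and 3.39 at 250 nM in Ku, and 16.8 and 19.0 at 50 nM and 8.09 and 7.76 at 250 nM in Cov. The groups were apart in order of dose. At 50 nM the fold change missed the threshold in both lines (-0.52 ± 0.12, adjusted p = 0.0142 by limma, and -0.60 ± 0.11, adjusted p = 0.00127), and from 50 to 250 nM NR1D2 fell in both (-1.12 ± 0.12, adjusted p = 0.000431, and -1.08 ± 0.11, adjusted p = 0.000218).

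DBP is an output gene of the clock, a bZIP factor that binds the D-box, and its values are given side by side for the 2 lines. DBP (chromosome 19, 49133287 to 49140636, minus strand) measured 3.67 and 2.49 FPKM in DMSO, 1.09 and 0.992 at 50 nM and 0.484 and 0.277 at 250 nM in Ku. In Cov it measured 3.71 and 3.70 FPKM in DMSO, 2.06 and 1.98 at 50 nM and 1.72 and 1.52 at 250 nM. All groups were apart, with 12.3% of the DMSO level left at 250 nM in Ku and 43.7% in Cov, a difference between lines that was not tested. At 50 nM its fold change missed the threshold in Ku (-0.98 ± 0.16, adjusted p = 0.00354 by limma) and passed it in Cov (-0.64 ± 0.09, adjusted p = 0.00038). DBP fell at 250 nM in both lines (-1.55 ± 0.16, adjusted p = 0.000152 by limma, and -0.85 ± 0.09, adjusted p = 5.75e-05).

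Ratios of 2 members within a library do not change with a single factor applied to all its genes. The spike-in scaling may not have been 1 factor per library. In Ku 250 nM replicate 1 the value shared by many rows was 0.0783 FPKM and the lowest 0.0564, while in Ku DMSO replicate 1 both were 0.118. Ratios of genes at unlike levels may thus depend on the scaling, which was not tested. The 6 pairs, chosen with the values known, are given as descriptions. CRY1 to CLOCK, a repressor to an activator, was 1.68 and 1.98 in Ku DMSO, 5.23 and 5.57 at 50 nM and 4.79 and 4.75 at 250 nM. In Cov it was 2.21 and 2.34 in DMSO, 6.85 and 6.49 at 50 nM and 3.86 and 4.57 at 250 nM. The ratio was thus higher in every treated library than in every DMSO library of its line, and highest at 50 nM in both.

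PER1 to PER3 was also higher in every treated library than in every DMSO library of its line, with 1.47 and 1.25 in Ku DMSO, 3.04 and 4.04 at 50 nM and 2.39 and 2.61 at 250 nM. In Cov it was 0.494 and 0.491 in DMSO, 1.13 and 0.996 at 50 nM and 1.01 and 1.29 at 250 nM, so PER1 went from below PER3 to about level with it. ARNTL to CLOCK was 0.578 and 0.508 in Ku DMSO and 1.06 and 0.921 at 50 nM, and at 250 nM it was 0.733 and 0.561, which overlapped DMSO. In Cov it was 0.401 and 0.355 in DMSO, 0.770 and 0.651 at 50 nM and 0.418 and 0.432 at 250 nM.

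Within the CRY pair the ratio of CRY1 to CRY2 went from 1.57 and 1.85 in Ku DMSO to 2.35 and 2.17 at 50 nM and 2.84 and 2.80 at 250 nM. In Cov it went from 6.40 and 8.72 to 11.5 and 13.9 at 50 nM and 12.2 and 11.1 at 250 nM. NR1D1 to NR1D2 moved down, from 0.245 and 0.271 in Ku DMSO to 0.192 and 0.190 at 50 nM and 0.112 and 0.114 at 250 nM, and from 0.109 and 0.110 in Cov DMSO to 0.0684 and 0.0636 and then to 0.0472 and 0.0794. PER1 to PER2 had means of 1.52 in Ku DMSO, 1.5 at 50 nM and 1.95 at 250 nM, and of 1.54, 1.25 and 2.33 in Cov. No ratio was tested.

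**Figure D3:**
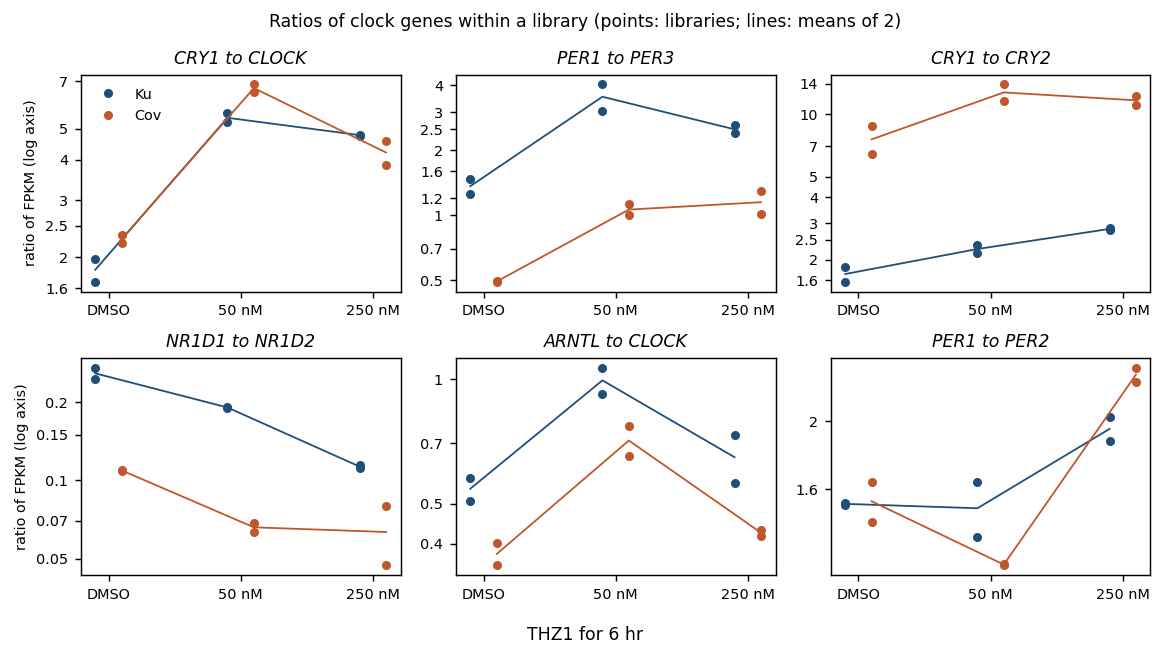
Ratio of the FPKM of 2 clock genes within each library, on a log axis, by dose of THZ1 for 6 hr, with points for libraries and lines through means of 2 libraries in Ku and Cov cells. CRY1 to CLOCK went from means of 1.83 and 2.28 in DMSO to 5.40 and 6.67 at 50 nM in Ku and Cov, while NR1D1 to NR1D2 was below its DMSO values in every treated library.

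Across the 12 libraries, each taken as log2(FPKM + 1) minus the DMSO mean of its line, the members most like each other were CRY2 and ARNTL, with a root mean square difference of 0.14, then PER1 and PER2 (0.15) and PER3 and CLOCK (0.17). The most unlike were PER3 and CRY1 (0.91) and CRY1 and CLOCK (0.87). The active gene nearest to PER3 was MLH3, a mismatch repair gene (0.0815), nearest to CRY1 was BCLAF1 (0.104) and nearest to CLOCK was CLCN3, a chloride transporter gene (0.0994). MLH3 measured 4.96 and 3.58 FPKM in Ku DMSO and 1.18 and 0.804 at 50 nM, and BCLAF1 72.6 and 63.1 and then 78.1 and 68.0. The nearest was TAX1BP3 for PER2 (0.0766), MAPKAPK2 for CRY2 (0.0787), USP46 for ARNTL (0.0738), GRK6 for NR1D1 (0.0542), PSMD7 for NR1D2 (0.0772) and FLRT2 for DBP (0.098). The libraries share their scaling and the common fall, so a small difference says only that the profiles are alike.

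Of the members 5 overlap a gene that also has a row in the tables, and the strand setting of the counting is not given in the sources used here, so reads in shared exons cannot be told apart. DBP shares 661 exonic bases with SPHK2, a sphingosine kinase gene on the other strand, which measured 10.3 and 11.4 FPKM in Ku DMSO, 2.20 and 1.90 at 50 nM and 1.41 and 1.75 at 250 nM. NR1D1 shares 473 bases with THRA, the thyroid hormone receptor alpha gene, which measured 2.96 and 2.44 FPKM in Ku DMSO, 2.63 and 1.83 at 50 nM and 0.983 and 1.11 at 250 nM. THRA kept 38.8% of its DMSO mean at 250 nM in Ku and 46.5% in Cov, where NR1D1 kept 11.8% and 16.5%. PER3 shares 868 bases with UTS2, which had means of 0.12 FPKM in Ku DMSO and 1.11 in Cov DMSO. CLOCK shares 76 bases with TMEM165, a Golgi gene, which measured 52.0 and 51.8 FPKM in Ku DMSO, 24.8 and 21.1 at 50 nM and 15.9 and 16.4 at 250 nM. NR1D2 and NKIRAS1 overlap in span with 0 shared exonic bases.

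Of 21 other clock genes, all had a row and 17 passed the filter, with RORA, HLF and FBXL21 among those that did not. At 50 nM 3 of the 17 were called lower in Ku (11.3% of all genes) and 12 in Cov (70.5% of all genes), while 11 and 17 were lower at an unadjusted p under 0.05 (61% and 91.5% of all genes). At 250 nM 16 were called lower in each line (68.6% of all genes in Ku and 84% in Cov). RORB was the exception in Ku, where it lay in every library at the low value shared by many rows and could not have been called, since it passed the filter through Cov alone. USP2 was the exception in Cov, with 20.9% of its RNA left and both libraries below DMSO (adjusted p = 0.000364 by limma). Its log2 fold change of -0.42 missed the limit of 0.5 at a DMSO mean of 0.466 FPKM, where the scale compresses changes, and it passed the filter through Ku alone. Between the doses 12 were called lower in Ku (36% of all genes) and 7 in Cov (24.4%). By limma 0 were called higher in any of the 6 comparisons, and 0 were higher at an unadjusted p under 0.05. Their median log2 fold change was -0.39 at 50 nM in Ku, beside -0.40 for all active genes, and -1.73 at 250 nM, beside -1.11. In Cov the medians were -0.99, beside -0.85, and -1.87, beside -1.31. Calls of these genes at 50 nM and between the doses were also lost in fits without 1 library. The share of all genes that lost a call in the same fits is not given here.

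BHLHE41 and BHLHE40 encode E-box repressors, also known as DEC2 and DEC1. BHLHE41 measured 143 and 125 FPKM in Ku DMSO, 19.8 and 18.2 at 50 nM and 6.16 and 6.22 at 250 nM, and in Cov 4.14 and 4.31, 0.986 and 0.963, and 0.449 and 0.402. It fell at 50 nM in both lines, to 14.2% of DMSO in Ku (adjusted p = 0.000142 by limma) and 23.1% in Cov (adjusted p = 2.16e-05). BHLHE40 kept 6.32% of its DMSO level at 250 nM in Ku and 41.0% in Cov, and it fell in both (adjusted p = 2.24e-05 and 7.3e-06). CIART, a repressor listed under its older symbol C1orf51, kept 15% and 6.88% and fell in both (adjusted p = 3.5e-05 and 1.3e-06).

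Among the D-box factors TEF, a relative of DBP, kept 18.7% of its RNA at 50 nM in Ku (adjusted p = 0.000351 by limma) and 17.6% in Cov (adjusted p = 2.13e-05), falling in both. NFIL3, which represses from the same site, measured 11.2 and 8.20 FPKM in Ku DMSO, 12.2 and 10.6 at 50 nM and 1.32 and 1.5 at 250 nM. It overlapped DMSO at 50 nM and was low at 250 nM, and it fell from 50 to 250 nM in Ku (-2.36 ± 0.17, adjusted p = 0.000121) and in Cov (-1.83 ± 0.10, adjusted p = 4.13e-05). The kinase gene CSNK1D, whose product phosphorylates PER proteins, fell at 50 nM in both lines, to 47.4% in Ku (adjusted p = 0.000625) and 27.9% in Cov (adjusted p = 2.13e-05).

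The activator paralogs ARNTL2 and NPAS2 kept 40.0% and 41.9% of their DMSO level at 250 nM in Ku and 28.3% and 44.5% in Cov. NPAS2, which can stand in for CLOCK, had a mean of 2.65 FPKM in Ku DMSO and 39.4 in Cov DMSO, and in Cov it measured 17.1 and 17.1 at 50 nM and 18.1 and 16.9 at 250 nM, where the step between the doses was 0.03 ± 0.08 (adjusted p = 0.759).

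**Figure D4:**
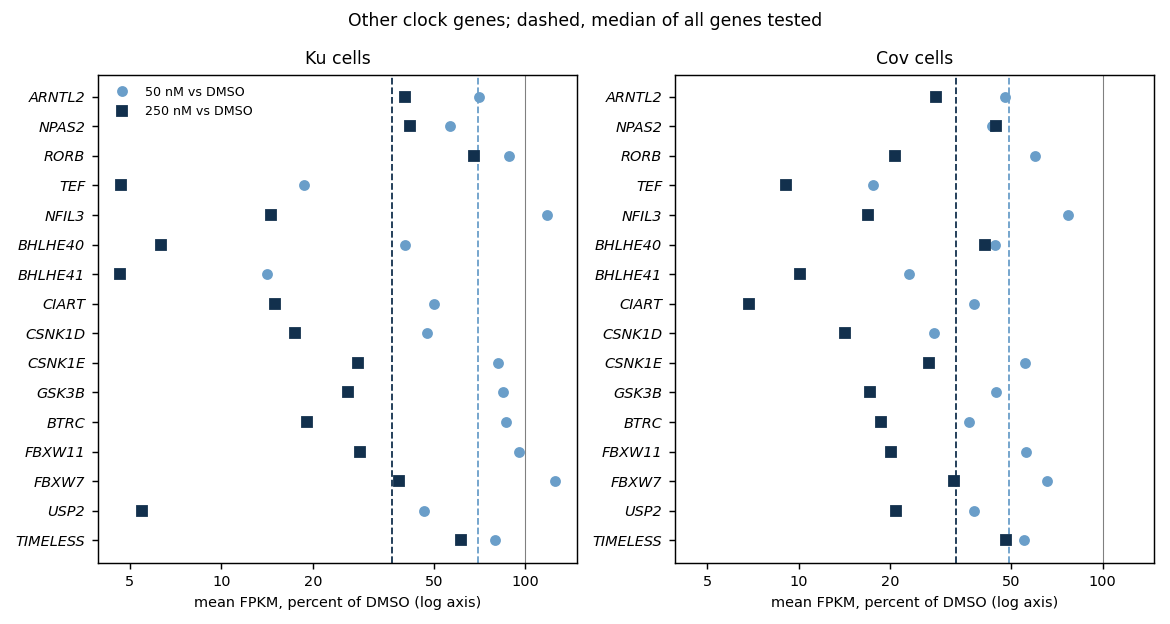
Mean FPKM of 16 other clock genes at 50 nM (circles) and 250 nM (squares) as a percent of DMSO, on a log axis, in Ku (left) and Cov cells (right), with 2 libraries per mean and dashed lines at the median of all active genes. TEF and BHLHE41 lie far left at both doses in both lines. At 50 nM NFIL3 and FBXW7 lie right of the median for that dose and, in Ku, above the DMSO level. At 250 nM NFIL3 lies left of the median, at 14.5% in Ku and 16.9% in Cov. RORB in Ku is at the low value shared by many rows in every library.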

How the data were processed

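Synthetic ERCC transcripts had been added by the authors to RNA adjusted for cell number before stranded mRNA libraries were prepared. Single-end reads were aligned to hg19 with HISAT, and the authors deposited FPKM from Cuffnorm of the Cufflinks suite, scaled by the spike-ins, as 1 table for each cell line. Tool versions, the annotation and the strand setting are not given in the sources used here. FPKM are not counts, so the count-based test named by the study was not used, and no interval based on depth is given.

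Samples were grouped by line and dose from their labels, and the 10 members were taken by exact row name. The members and the gene lists were chosen with earlier results of these data known. Rows above 1 FPKM in at least 1 of 12 libraries were kept (14251 of 23621 genes, without 92 ERCC rows) and put on the log2(FPKM + 1) scale. The lines were fitted separately with limma 3.58.1 in R 4.3.3 (lmFit, eBayes with trend, 3 groups of 2 libraries), two-sided, with Benjamini-Hochberg adjustment over all kept genes. P-values measure the spread between duplicates only. The percent left is a ratio of group means of FPKM. Fold changes on the log2(FPKM + 1) scale understate changes of low genes. Named genes were the members, the listed clock genes and markers, genes overlapping a member, and the active gene with the nearest profile to each member, some of which are not reported here.

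Positions are from the GENCODE annotation on GRCh37 (hg19), where ARNTL is named BMAL1. Start windows are from RefSeq on GRCh38.p14, and coordinates were not moved between builds. A planned comparison of protein sequences was not run. Alternatives were a pseudocount of 0.1, a minimum of 10 FPKM, a minimum applied to group means, the absence of any minimum, scaling to equal medians or by median of ratios, a fit without the group not compared, a replicate block, eBayes with no trend, thresholds of 0.05 on the adjusted p or of 1 on the log2 fold change, and the omission of single libraries.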

Additional observations from a re-analysis of the deposited data

Results flagged for a closer look

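At 50 nM of THZ1 CRY1 and FBXW7, an F-box gene, differed in direction against DMSO between the lines. Both treated libraries lay above both DMSO libraries in Ku (3.45% of all genes) and below them in Cov (95.7% of all genes). The log2 fold change of CRY1 was 0.26 in Ku (adjusted p = 0.148 by limma) and -0.32 in Cov (adjusted p = 0.0434). For FBXW7 it was 0.29 in Ku (adjusted p = 0.16 by limma), where it measured 8.59 and 8.13 FPKM in DMSO and 11 and 9.97 at 50 nM, and -0.55 in Cov (adjusted p = 0.0122), where it measured 12.5 and 13.6 FPKM and then 8.08 and 9.0. None of these values passed the threshold. The median of all active genes was -0.40 in Ku and -0.85 in Cov, and both genes lay above it in both lines. CRY1 lay above that median by 0.66 in Ku and 0.53 in Cov, and FBXW7 by 0.69 and 0.295. The difference between the lines was not tested.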

How the results depend on the processing

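With each library scaled to the same median FPKM, limma called 0 members lower at 50 nM and between the doses in both lines, 1 at 250 nM in Ku and 0 in Cov, and 1 higher at 250 nM in each line. Of all genes 0.737%, 11.6% and 6.55% were called lower at 50 nM, at 250 nM and between the doses in Ku and 0.147%, 11.3% and 4.95% in Cov. Other clock genes called lower were 1 at 50 nM, 6 at 250 nM and 2 between the doses in Ku and 0, 5 and 2 in Cov. Those called higher were 2 at 250 nM (26.9% of all genes) and 1 between the doses (6.46%) in Ku. In Cov they were 3 at 250 nM (26.4%) and 3 between the doses (3.16%). The median log2 fold change of the members was 0.16, -0.025 and -0.048 at 50 nM, at 250 nM and between the doses in Ku and 0.16, 0.054 and -0.14 in Cov, and that of all genes was 0.10, 0.29 and 0.24 in Ku and 0.12, 0.31 and 0.21 in Cov. Among values called on either scale, signs turned at 250 nM in Ku for PER1 (0.61), PER2 (0.28), CRY1 (0.85), CRY2 (0.17) and NR1D2 (0.078), at 50 nM in Cov for PER1 (0.15), CRY2 (0.083), ARNTL (0.17) and DBP (0.23), and at 250 nM in Cov for PER1 (0.57), PER2 (0.12), CRY1 (0.58), NR1D2 (0.26) and DBP (0.62). Among values called on neither, 5 turned at 50 nM and 4 between the doses in Ku and 3 and 4 in Cov, up to 0.84 for CRY1 at 50 nM in Cov.

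With median-of-ratios scaling limma called 1 member lower at 250 nM in Ku and 0 in each of the other 5 comparisons, where 2.72%, 19% and 11.1% of all genes were called lower at 50 nM, at 250 nM and between the doses in Ku and 0.772%, 18.9% and 7.92% in Cov, and 11.1% and 8.57% were called higher at 250 nM in Ku and Cov. Other clock genes called lower were 8 at 250 nM and 6 between the doses in Ku and 0 at 50 nM, 8 at 250 nM and 3 between the doses in Cov. Of these genes 1 was called higher at 250 nM in each line and 1 between the doses in Ku (1.39% of all genes). The medians of the members were 0.048, -0.44 and -0.33 in Ku and 0.029, -0.24 and -0.29 in Cov, and those of all genes that turned in sign were 0.025 at 50 nM and 0.034 between the doses in Ku and 0.0020, 0.011 and 0.038 in Cov. Among called values signs turned for PER1 (0.16) and CRY1 (0.37) at 250 nM in Ku, for PER1 (0.021), ARNTL (0.037) and DBP (0.11) at 50 nM in Cov, and for PER1 (0.25), CRY1 (0.15) and DBP (0.29) at 250 nM in Cov, and among the others 4 turned at 50 nM and 2 between the doses in Ku and 3 and 4 in Cov. Both scalings take the common fall out by construction, and which scale describes the cells was not tested.

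With no minimum FPKM members called lower were 0, 6 and 0 at 50 nM, at 250 nM and between the doses in Ku, 3 at 50 nM in Cov and 1 between the doses in Cov, and other clock genes 0 at 50 nM and 6 between the doses in Ku, against 0.0127%, 34.5% and 8.05% of all genes in Ku and 35.1% and 9.0% at 50 nM and between the doses in Cov. A minimum of 10 FPKM kept 4 members, of which 0 at 50 nM, 4 at 250 nM and 2 between the doses were called lower in Ku and 2 at 50 nM and 4 at 250 nM in Cov, against 15.5%, 82.5% and 54.5% of all genes in Ku and 80.3% and 94.0% in Cov, with medians of -0.66, -1.53 and -0.69 in Cov. A pseudocount of 0.1 changed no call of a member against DMSO and gave medians of -1.97 at 250 nM and -1.29 between the doses in Ku and -0.95, -1.88 and -0.99 in Cov. An adjusted p under 0.05 called 5 members and 7 other clock genes at 50 nM in Ku (40.2% of all genes), 9 members between the doses in Ku (58.2%), and 6 members and 11 others between the doses in Cov (41.5%), and a log2 fold change beyond 1 left 2 members at 50 nM in Cov (35.5%). A fit of only the 2 groups left 0 members and 1 other clock gene at 50 nM in Ku (0.0632%).

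Libraries with the same number did not deviate together (r between -0.0703 and 0.0282 across active genes), so the numbers do not pair them. The fit with the replicate block called 0 members at 50 nM in Ku (6.94% of all genes), and 0 members and 4 other clock genes between the doses in Cov (7.93%), and it moved no other count of clock genes by over 1.5 times.

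With 1 library left out, where a lone library is assumed to vary like the other groups, members called lower ranged over 0 to 0 at 50 nM, 4 to 9 at 250 nM and 0 to 3 between the doses in Ku, and over 3 to 7, 9 to 10 and 0 to 3 in Cov. Other clock genes called lower ranged over 0 to 1, 12 to 14 and 2 to 11 in Ku and over 7 to 13, 15 to 16 and 6 to 9 in Cov. Member medians ranged over -0.57 to -0.31, -1.64 to -1.32 and -0.99 to -0.87 in Ku and over -0.79 to -0.68, -1.46 to -1.35 and -0.60 to -0.48 in Cov. Against DMSO 200 of 240 member values kept their direction and side of the threshold, 39 lost the call and 1 turned in sign, that of CRY2 at 50 nM in Ku without DMSO replicate 1 (0.020 in place of -0.11, called in neither fit).

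With 2 libraries per group and an unknown depth, small differences at 50 nM cannot be told from no difference by these tests. At 250 nM NR1D1 in both lines, DBP in Ku and PER2 in Cov had values between 0.277 and 0.717 FPKM, not far above the low value shared by many rows.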
